A study of Mus musculus with 12 samples.

Results

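The genes described are 43 genes of the presynaptic vesicle and of transmitter release, chosen by symbol among the 55487 genes of the deposited tables, and all 43 matched 1 mouse Ensembl gene. They were read across 12 RNA-seq libraries from the ventricular zone of the mouse embryonic dorsal cortex, cut out by laser microdissection. Each of 4 groups had 3 libraries: p18mKO2- tissue at E13.5 (embryonic day), p18mKO2+ tissue at E13.5, and the same pair at E16.5. The p18mKO2+ tissue is labelled as over-expressing p18mKO2, from a conditional p18-P2A-mKO2 cassette behind a loxP-flanked stop in ROSA26, and the p18mKO2- tissue is labelled normal. p18 is a cyclin-dependent kinase inhibitor, the product of Cdkn2c, and mKO2 is a fluorescent protein. Tamoxifen was given in all 4 groups, so the controls carry it too, and the sources used here do not name the Cre driver, and so not the cells that recombined. Nothing in the labels says that replicates came from different embryos, so p-values reflect only how far these libraries spread, which can be technical.

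The depth of the libraries was 17101953 to 21837090 estimated counts. Cdkn2c, the gene that the cassette carries, overlapped between p18mKO2- and p18mKO2+ in CPM (counts scaled to library size) at both stages, with log2 changes of 0.14 ± 0.26 (SE; edgeR, adjusted p = 0.798) at E13.5 and 0.32 ± 0.26 (SE; edgeR, adjusted p = 1) at E16.5. Whether reads from the cassette were counted at Cdkn2c is unknown, so these values do not check the over-expression. Replicate 3 of p18mKO2+ at E13.5 and replicate 3 of p18mKO2+ at E16.5 held both Xist and Y-linked transcripts, at 224 and 105 TPM (abundance scaled to transcript length and library size) of Xist beside 60.9 and 52.5 TPM summed over 4 Y-linked genes. The other 10 libraries held one kind or the other, and all 3 p18mKO2- libraries at E13.5 held Xist. Those with the Y-linked kind were replicate 2 of p18mKO2+ at E13.5, replicate 2 of p18mKO2- at E16.5, and replicates 1 and 2 of p18mKO2+ at E16.5. The groups compared were thus not matched on these sex-linked transcripts. Results are also given without the 2 libraries that held both kinds, which leaves the groups unmatched, and counts of calls with Y-linked expression as a covariate.

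A chemical synapse releases transmitter from vesicles that dock at the active zone, fuse with the plasma membrane and are taken up again. SNARE proteins on the vesicle and the membrane drive fusion, synaptotagmins sense calcium, active zone scaffolds place vesicles near calcium channels, and dynamin with its partners retrieves membrane by endocytosis. Many of these genes are transcribed in young neurons before synapses form, whereas radial glia, the dividing cells of the ventricular zone, use related but more broadly expressed trafficking proteins.

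All 43 genes passed the filter on low counts and were tested. By TPM, which is per length, the highest gene of each role, as a mean over the 12 libraries, was Syp at 73.4 TPM among the vesicle proteins, Vamp2 at 152 TPM in the SNARE machinery, Syt11 at 178 TPM among the synaptotagmins and Doc2, Rab3a at 154 TPM among the Rab3 proteins, Ppfia2 at 33.2 TPM at the active zone, Slc17a6 at 30.9 TPM among the transporters and Sh3gl2 at 34.6 TPM in endocytosis. The lowest of the 43 were Syt2 at 0.618 TPM and Sv2c at 0.831 TPM. Values of single genes in each library are CPM with TMM-scaled library sizes, because TPM carried a shift of the whole library: the median log2 ratio of TPM to CPM was 0.17 higher in p18mKO2+ at E13.5 and 0.27 higher at E16.5 over 14462 genes. Summed levels of gene lists are in TPM and carry this shift.

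Promoter sequences from RefSeq (GRCm38.p6) were matched for 34 of the 43 genes, in 43 windows of 300 bases, from 250 bases before to 50 after a start site. The 250 bases before the start are shown for Cplx1, the gene with the largest log2 change at E13.5, and for Syn1 and Sh3gl2, the only members whose window held a full cAMP response element; capitals mark every match, on either strand, to the cAMP response element TGACGTCA, to TCAGCACC, the left arm of the RE1 element bound by the repressor REST, and to the GC box GGGCGG.
Cplx1 (chr5:108550028-108550277, minus strand): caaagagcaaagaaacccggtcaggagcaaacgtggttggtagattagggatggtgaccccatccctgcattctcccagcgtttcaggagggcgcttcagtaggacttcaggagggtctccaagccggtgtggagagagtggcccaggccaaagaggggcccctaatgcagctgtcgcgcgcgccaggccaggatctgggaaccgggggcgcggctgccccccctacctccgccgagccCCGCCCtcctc
Sh3gl2 (chr4:85205206-85205455, plus strand): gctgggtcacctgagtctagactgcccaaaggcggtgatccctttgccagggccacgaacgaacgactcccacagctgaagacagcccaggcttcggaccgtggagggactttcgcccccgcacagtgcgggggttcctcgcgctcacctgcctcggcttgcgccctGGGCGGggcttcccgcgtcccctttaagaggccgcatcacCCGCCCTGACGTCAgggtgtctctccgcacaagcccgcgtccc
Syn1 (chrX:20920919-20921168, minus strand): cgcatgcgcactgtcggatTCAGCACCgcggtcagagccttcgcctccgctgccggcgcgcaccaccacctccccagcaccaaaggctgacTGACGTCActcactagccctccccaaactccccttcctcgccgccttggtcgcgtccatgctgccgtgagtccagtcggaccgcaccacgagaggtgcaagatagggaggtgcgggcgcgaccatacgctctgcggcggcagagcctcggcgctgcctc
In Syn1 the RE1 left arm starts 231 bases and the cAMP response element 159 bases before the start site. In Sh3gl2 the cAMP response element starts 37 bases before the start site and adjoins a GC box. These distances hold for the RefSeq start sites. By GENCODE M21, Sh3gl2 starts at chr4:85205126, so the stretch shown lies inside that gene. Syn1 starts there at chrX:20921004, inside the stretch shown.

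The cAMP response element was found in 2 of the 43 member windows (4.65%) and in 1.79% of all 32851 promoter windows of that length. The RE1 left arm was found in windows of Syn1 and Unc13a, 4.65% of member windows against 1.65% of all windows. No member window held the left arm followed after 2 bases by the exact right arm GGACAG, which 0.024% of all windows held. Near matches were not counted. In Syn1 the left arm was followed after 2 bases by GGTCAG, with T in place of A. A GC box stood in the windows of 28 members, 67.4% of member windows against 35.7% of all windows. Member windows also had a median GC content of 62.3% and 19 CpG dinucleotides, against 52.7% and 7 over all windows.

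The comparison at E13.5 asked how the genes differ between p18mKO2+ and p18mKO2- tissue at the earlier stage. Of the 43 genes, 18 rose in p18mKO2+ at a Benjamini-Hochberg adjusted p under 0.05, where 7.29% of all 16798 genes tested rose, and 0 fell, where 3.49% of all genes fell. The median log2 change was 0.94 over the 43 genes and 0.01 over all genes tested, and 36 of the 43 changes were positive. Without p18mKO2+ replicate 3 at E13.5 the median over the 43 genes was 0.56, and without both libraries that held Xist and Y-linked transcripts it was also 0.56. In 22 genes each p18mKO2+ value lay above each p18mKO2- value, which held for 16.6% of all genes. At an unadjusted p under 0.05, 26 of the 43 differed, as did 4271 of all 16798 genes, and Syt13 was the only one of the 26 that was lower. DESeq2 called 22 of the 43 higher, where it called 10.2% of all genes higher, and limma-voom 16, where it called 6.32%. Neither called any of the 43 lower. On TPM the median log2 changes were 0.81 over the 43 genes and 0.14 over all genes. The genes that rose were 4 of 7 vesicle proteins, 2 of 8 SNARE genes, 2 of 8 synaptotagmins and Doc2, 2 of 3 Rab3 genes, 6 of 9 active zone genes, 0 of 3 transporters and 2 of 5 endocytosis genes.

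**Figure D1:**
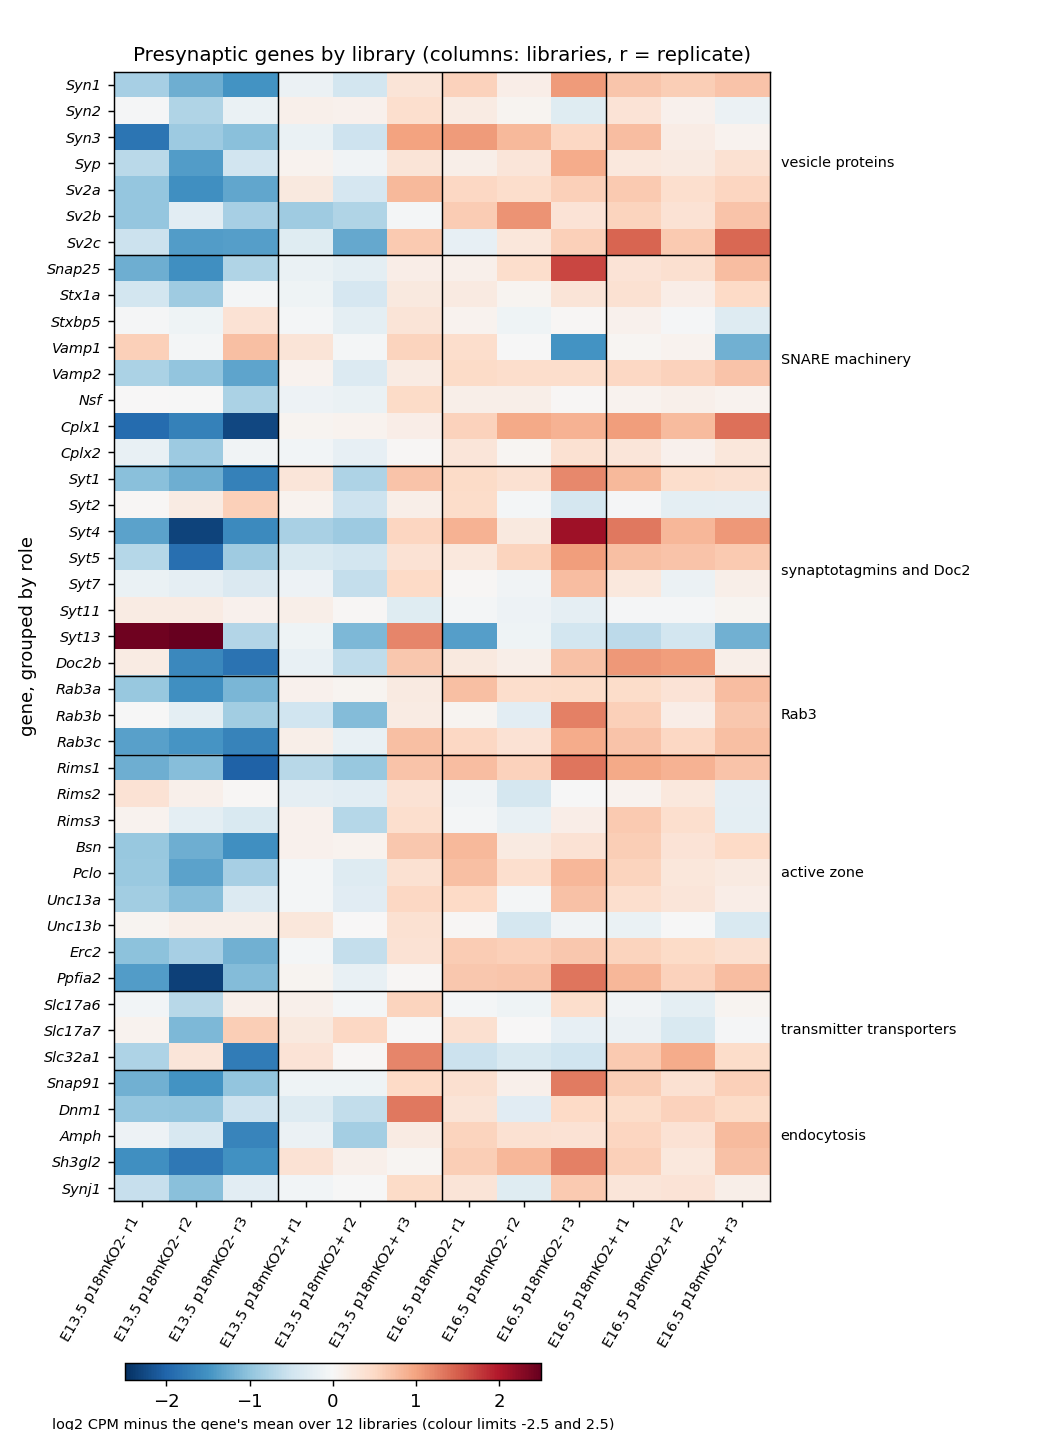
Each cell shows log2 CPM minus the gene's mean over the 12 libraries, for the 43 genes in rows by role and the libraries in columns by group, on a colour scale from -2.5 to 2.5. The 3 p18mKO2- libraries at E13.5 are blue for most vesicle, Rab3, active zone and endocytosis genes, and Syt13 is deep red, at the top of the scale, in 2 of them.

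Among the vesicle proteins, the synapsins bind vesicles to the actin cytoskeleton. Syn1 stood at 36.4, 27.7 and 22.8 CPM in the 3 p18mKO2- libraries and 59.2, 47.3 and 81.8 CPM in p18mKO2+ at E13.5. All p18mKO2+ values of Syn1 lay above the p18mKO2- values, and the log2 change was 1.12 ± 0.24 (SE; edgeR, adjusted p = 0.0107). Syn3 stood at 0.883, 2.12 and 1.87 CPM in p18mKO2- and 3.88, 2.93 and 9.39 CPM in p18mKO2+. Replicate 3 of p18mKO2+ was far above the others for Syn3, the groups did not overlap, and the log2 change was 1.73 ± 0.46 (SE; edgeR, adjusted p = 0.0289). Syn2 also did not overlap between groups, at 0.53 ± 0.22 (SE), but missed the threshold with edgeR (adjusted p = 0.144).

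Synaptophysin and SV2 proteins span the vesicle membrane. Syp, encoding synaptophysin, stood at 59.8, 35.8 and 68.9 CPM in p18mKO2- and 102, 90.4 and 120.1 CPM in p18mKO2+. The 3 p18mKO2+ values of Syp were the higher ones, with a log2 change of 0.92 ± 0.23 (SE; edgeR, adjusted p = 0.0226). Sv2a stood at 34.2, 23.1 and 26.96 CPM in p18mKO2- and 79.9, 49.96 and 118 CPM in p18mKO2+. Sv2a spread more than 2-fold among the p18mKO2+ libraries yet did not overlap with p18mKO2-, with a log2 change of 1.56 ± 0.24 (SE; edgeR, adjusted p = 0.00171). Its relatives were not called: Sv2b had a log2 difference of 0.15 ± 0.30 and Sv2c of 1.19 ± 0.55 (SE), both with overlapping groups.

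In the SNARE machinery, Cplx1, which encodes complexin 1, a protein that binds the assembled SNARE complex and controls its fusion step, had the largest log2 change of the 43. Cplx1 stood at 8.15, 9.71 and 6.26 CPM in p18mKO2- and 33.8, 34.6 and 36.3 CPM in p18mKO2+. The 3 values within each Cplx1 group lay close together and far from the other group, and the log2 change was 2.12 ± 0.20 (SE; edgeR, adjusted p = 4.24e-05). Vamp2, the vesicle SNARE synaptobrevin 2, stood at 92.98, 81.2 and 64.9 CPM in p18mKO2- and 172, 128 and 186 CPM in p18mKO2+. No Vamp2 values overlapped, and the log2 change was 1.02 ± 0.16 (SE; edgeR, adjusted p = 0.00165). Snap25, the membrane SNARE, did not overlap either, at 43.7, 35.1 and 61.01 CPM against 92.01, 87.03 and 115 CPM, and lay just outside the threshold at 1.07 ± 0.33 (SE; edgeR, adjusted p = 0.0510). Cplx2, Stx1a and Nsf, the ATPase that takes SNARE complexes apart, had log2 changes of 0.27, 0.36 and 0.32, and Stxbp5 (tomosyn) and Vamp1 of -0.07 and -0.18, none called.

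Of the calcium sensors, Syt1, the main sensor for fast release, stood at 30.1, 26.8 and 19.2 CPM in p18mKO2- and 77.6, 36.5 and 103 CPM in p18mKO2+. Replicate 2 of p18mKO2+ lay nearest to p18mKO2- without overlap, and the log2 change of Syt1 was 1.51 ± 0.32 (SE; edgeR, adjusted p = 0.00962). Syt5 stood at 17.03, 7.27 and 15.1 CPM in p18mKO2- and 21.8, 20.4 and 36.7 CPM in p18mKO2+. Its call was the closest of the 18 to the threshold, at 1.00 ± 0.30 (SE; edgeR, adjusted p = 0.0494). Syt4 did not overlap between groups but was not called, at 1.48 ± 0.46 (SE; edgeR, adjusted p = 0.0563). Syt11, the highest member by TPM and a synaptotagmin that does not bind calcium, stood at 493, 493 and 461 CPM in p18mKO2- and 474, 436 and 344 CPM in p18mKO2+. The groups of Syt11 overlapped, and its log2 change was -0.21 ± 0.13 (SE; edgeR, adjusted p = 0.362). Syt13 was split within p18mKO2-, at 41.01, 45.2 and 4.09 CPM, against 6.59, 3.02 and 17.4 CPM in p18mKO2+. Replicate 3 of p18mKO2- was low like the p18mKO2+ libraries, and the change of -1.74 ± 0.71 (SE; edgeR, adjusted p = 0.143) was not called. Syt2, Syt7 and Doc2b, a further calcium-binding protein, had log2 changes of -0.44, 0.25 and 0.94, none called.

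Rab3 proteins are small GTPases that bring vesicles to the active zone. Rab3a stood at 50.9, 33.8 and 44.6 CPM in p18mKO2- and 107, 104 and 116 CPM in p18mKO2+. Each p18mKO2+ value of Rab3a was more than 2 times the highest p18mKO2- value, and the log2 change was 1.34 ± 0.17 (SE; edgeR, adjusted p = 3.98e-04). Rab3c stood at 63.02, 58.3 and 50.9 CPM in p18mKO2- and 179.5, 142 and 274 CPM in p18mKO2+. Rab3c values did not overlap, and the log2 change was 1.79 ± 0.22 (SE; edgeR, adjusted p = 3.19e-04). Rab3b overlapped between groups, with a log2 change of -0.04 ± 0.41 (SE; edgeR, adjusted p = 0.974).

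At the active zone, Bsn and Pclo encode the giant scaffolds bassoon and piccolo. Bsn stood at 28.7, 23.8 and 18.95 CPM in p18mKO2- and 60.5, 59.2 and 89.2 CPM in p18mKO2+. All 3 p18mKO2+ values of Bsn were more than 2 times the highest p18mKO2- value, and the log2 change was 1.55 ± 0.21 (SE; edgeR, adjusted p = 6.68e-04). Pclo stood at 30.8, 23.2 and 33.2 CPM in p18mKO2- and 57.2, 47.2 and 77.2 CPM in p18mKO2+. Pclo did not overlap between groups, and its log2 change was 1.06 ± 0.20 (SE; edgeR, adjusted p = 0.00442). Ppfia2, encoding liprin alpha 2, which organises the release site, stood at 23.8, 12.2 and 29.3 CPM in p18mKO2- and 65.9, 55.4 and 64.7 CPM in p18mKO2+. The p18mKO2+ values of Ppfia2 lay close together above the spread of p18mKO2-, with a log2 change of 1.51 ± 0.26 (SE; edgeR, adjusted p = 0.00294).

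RIM, ELKS and Munc13 proteins tether and prime vesicles at the release site. Rims1, encoding RIM1, stood at 5.66, 6.40 and 3.04 CPM in p18mKO2- and 8.39, 6.99 and 23.2 CPM in p18mKO2+. Replicates 1 and 2 of p18mKO2+ lay just above p18mKO2- for Rims1 and replicate 3 far above, and the log2 change was 1.35 ± 0.41 (SE; edgeR, adjusted p = 0.0492). Erc2, encoding an ELKS protein, stood at 22.9, 26.2 and 20 CPM in p18mKO2- and 45.2, 30.99 and 60.6 CPM in p18mKO2+. Erc2 did not overlap, with a log2 change of 0.99 ± 0.20 (SE; edgeR, adjusted p = 0.00672). Unc13a, encoding the vesicle priming factor Munc13-1, stood at 38.8, 34.2 and 56.6 CPM in p18mKO2- and 69.4, 58.9 and 103 CPM in p18mKO2+. Replicate 2 of p18mKO2+ lay just above the highest p18mKO2- value of Unc13a, and the log2 change was 0.83 ± 0.24 (SE; edgeR, adjusted p = 0.0426), the smallest of the 18. Rims2, Rims3 and Unc13b had log2 changes of -0.19, 0.19 and 0.11, all with overlapping groups and none called.

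The vesicular transporters, which fill vesicles with glutamate or GABA, were not called at E13.5. Slc17a6 (VGLUT2) stood at 68.01, 44.1 and 78.4 CPM in p18mKO2- and 78.2, 69.1 and 105 CPM in p18mKO2+. Its groups overlapped, and its log2 change was 0.41 ± 0.22 (SE; edgeR, adjusted p = 0.274). Slc17a7 (VGLUT1) had a log2 difference of 0.24 ± 0.32 and Slc32a1, the GABA and glycine transporter, of 1.16 ± 0.43 (SE), both with overlapping groups.

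In endocytosis, Sh3gl2 encodes endophilin A1, which bends the membrane and recruits synaptojanin, and it had the second largest log2 change of the 43. Sh3gl2 stood at 15.5, 13.02 and 15.8 CPM in p18mKO2- and 59.05, 50.5 and 47.7 CPM in p18mKO2+. The spread within either Sh3gl2 group was small beside the gap between them, and the log2 change was 1.83 ± 0.19 (SE; edgeR, adjusted p = 9.63e-05). Snap91, encoding the clathrin adaptor AP180, stood at 28.3, 23.1 and 32.99 CPM in p18mKO2- and 61.3, 61.3 and 92.7 CPM in p18mKO2+. Snap91 did not overlap, with a log2 change of 1.35 ± 0.27 (SE; edgeR, adjusted p = 0.00628). Synj1 (synaptojanin 1) and Dnm1 (dynamin 1) lay just outside the threshold, at 0.76 ± 0.24 (SE; edgeR, adjusted p = 0.0603) and 1.23 ± 0.40 (SE; edgeR, adjusted p = 0.0649), and Amph (amphiphysin) at 0.41 ± 0.33 (SE) with overlapping groups. Dnm1 in replicate 3 of p18mKO2+, at 28.02, 22.9 and 88.3 CPM over the 3 replicates, was far above the others.

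**Figure D2:**
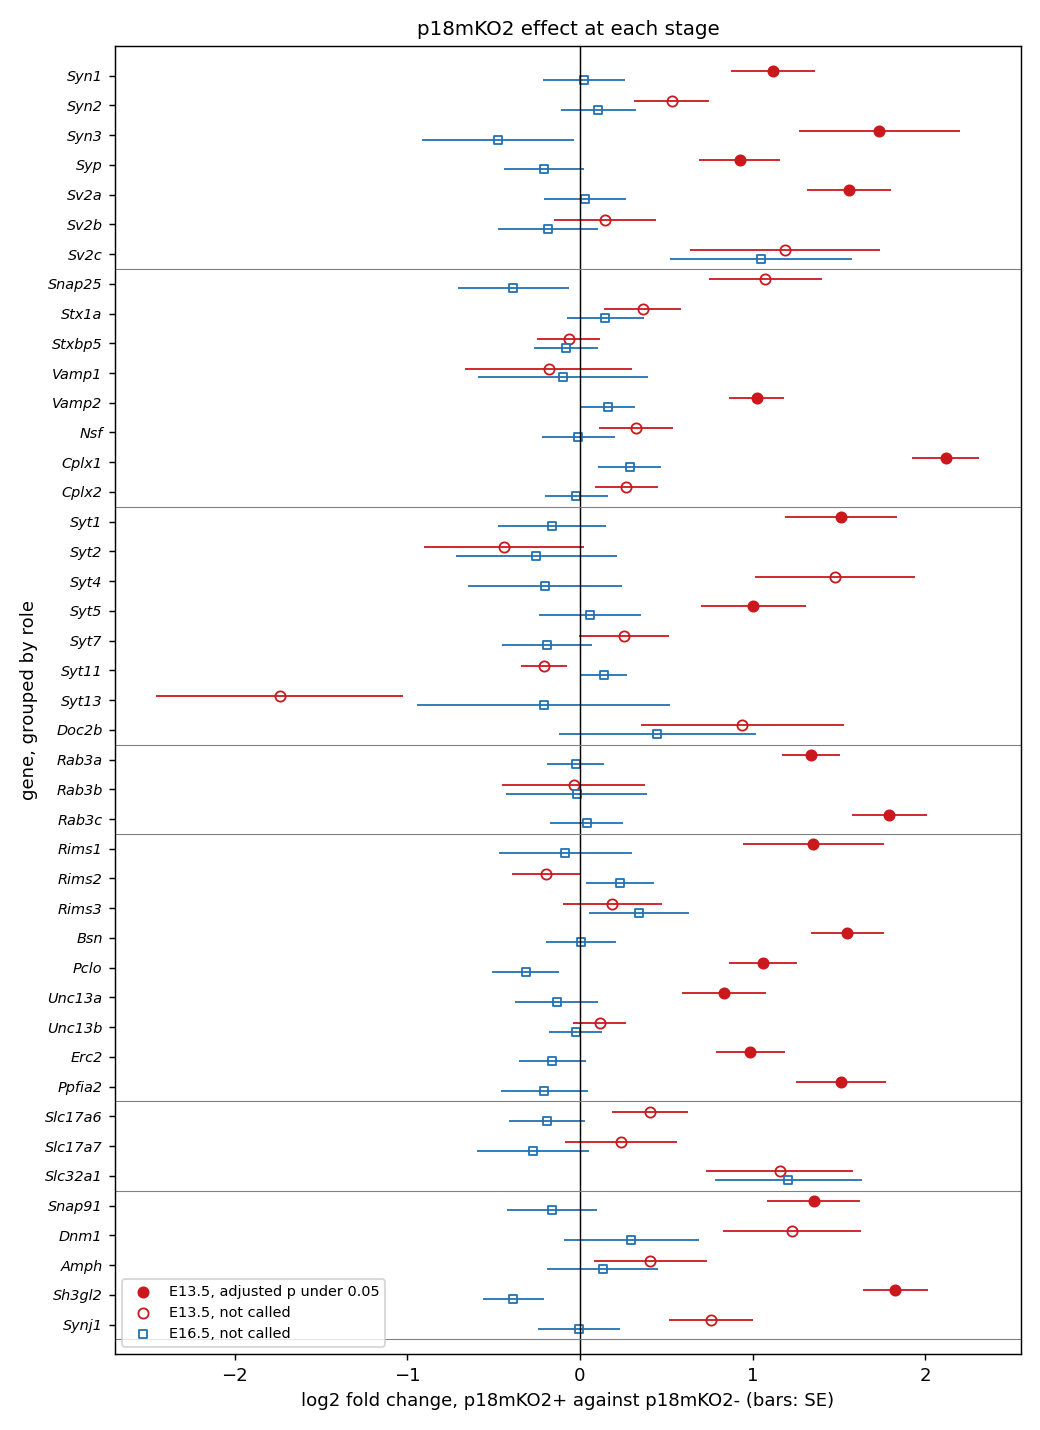
Points show the log2 fold change of p18mKO2+ against p18mKO2- for each of the 43 genes by role, in red at E13.5 and blue at E16.5, with bars for the SE; filled points passed an adjusted p under 0.05. The 18 filled red points lie between 0.83 and 2.12, and 0 blue points are filled.

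Leaving out each of the 6 E13.5 libraries in turn, 13 of the 18 genes were called each time, and Syn3, Syp, Syt5, Rims1 and Unc13a were not. Rims1 lost its call without any 1 of the p18mKO2- replicates or without p18mKO2+ replicate 3 (edgeR, adjusted p from 0.0701 to 0.295). Syn3 lost it without p18mKO2- replicate 1 or 3 or p18mKO2+ replicate 3 (0.0595 to 0.176), and Syp without p18mKO2- replicate 2 or p18mKO2+ replicate 1 or 3 (0.0584 to 0.0842). Syt5 lost it without p18mKO2- replicate 2 or 3 or p18mKO2+ replicate 1 or 3 (0.0695 to 0.214), and Unc13a without p18mKO2- replicate 1 or 2 or p18mKO2+ replicate 1 or 3 (0.0790 to 0.202). Without the 2 libraries that held both Xist and Y-linked transcripts, 11 of the 18 were called, where 3.72% of all genes rose. Syn1 and Syt1 were then lost besides these 5 (edgeR, adjusted p from 0.0601 to 0.323 over the 7). Syn1 and Syp are on the X chromosome. Syt13 was called lower without p18mKO2- replicate 3, its low p18mKO2- library. On deposited TPM, tested with limma on log2(TPM + 1), Syn3, Rims1 and Unc13a were not called (adjusted p from 0.0570 to 0.194). Unc13a stood at 7.26, 22.6 and 12.1 TPM in p18mKO2- and 32.1, 14.7 and 29.4 TPM in p18mKO2+, so that its groups overlapped on that scale.

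Markers of cell types moved with these genes at E13.5. Of 14 pan-neuronal genes, 9 rose and 0 fell, among them Dcx, a microtubule protein of migrating neurons, at 1.49 ± 0.15 (SE; edgeR, adjusted p = 1.07e-04); their summed level was 1421 to 1856 TPM in p18mKO2- and 2893 to 4730 TPM in p18mKO2+. Of 13 radial glia genes, 7 fell and 0 rose (3167 to 3596 TPM in p18mKO2- and 2195 to 2905 TPM in p18mKO2+), and of 14 cell cycle genes 11 fell and 0 rose (2539 to 2804 TPM and 1477 to 1999 TPM). Replicate 3 of p18mKO2+, the highest library for most of the 18 genes, was also the highest for pan-neuronal genes and the lowest for cell cycle genes within the stage. The 43 genes summed to 765 to 915 TPM in p18mKO2- and 1221 to 1858 TPM in p18mKO2+, which is 48.9 to 58.8% of the pan-neuronal sum in p18mKO2- and 39.3 to 43.4% in p18mKO2+. Syt11, which was not called, held 176 to 195 TPM of that sum in p18mKO2- and 160 to 200 TPM in p18mKO2+. This level of Syt11 raises the share most where the other genes are low, so the shares do not describe the 43 genes alike. In bulk tissue, more neurons and more RNA of these genes per neuron cannot be told apart, and the part of neuronal content in the changes was not tested.

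The other marker lists at E13.5 were short, of 6 to 13 genes, so that a few calls make up a large share of some. For intermediate progenitors, 2 of 8 genes fell, for GABAergic cells 2 of 13 rose (235 to 449 TPM in p18mKO2- and 506 to 841 TPM in p18mKO2+), for astrocytes 2 of 7 tested rose and 1 fell, for the oligodendrocyte lineage 2 of 6 rose, for endothelial cells and pericytes 2 of 8 rose and for erythroid cells 2 of 6 fell. None of the 7 microglial or 6 meningeal genes were called with edgeR. None of the 7 genes of Cajal-Retzius cells, early-born neurons of the cortical surface, were called either, but their median log2 change was 1.92, above that of the 43 genes. They summed to 88.4, 57.8 and 56.04 TPM in p18mKO2- and 131, 58.03 and 221 TPM in p18mKO2+, highest in replicate 3 like most of the 43 genes. No tested marker of any list was at 0 in all libraries. Of 11 genes of REST and its cofactors, 2 fell: Rest itself, at -0.71 ± 0.21 (SE; edgeR, adjusted p = 0.0454), and Hdac1, at -0.54 ± 0.13 (SE; edgeR, adjusted p = 0.0203). The part of these lists in the changes was not tested.

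A list of other presynaptic genes was read in the same way at E13.5. Of 55 such genes, 52 were tested, 23 rose and 0 fell, with a median log2 change of 0.98. Syngr1, encoding the vesicle protein synaptogyrin 1, changed by 1.53 ± 0.22 (SE; edgeR, adjusted p = 0.00109). Rph3a, encoding the Rab3 effector rabphilin, changed by 3.24 ± 0.46 (SE; edgeR, adjusted p = 9.79e-04) and Dnm3, encoding dynamin 3, by 2.47 ± 0.36 (SE; edgeR, adjusted p = 0.00114). Among 26 broadly expressed trafficking paralogues, 1 rose, Stx7 at 0.99 ± 0.20 (SE; edgeR, adjusted p = 0.00694), and 0 fell, with a median log2 change of 0.02. Beside Dnm1, Sh3gl2, Synj1, Snap25 and Vamp2, the paralogues Dnm2, Sh3gl1, Synj2, Snap23 and Vamp3 had log2 changes of -0.003, -0.30, -0.0009, -0.35 and -0.17, none called.

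Long genes rose more often in the whole table, and many of the 43 are long. By quartile of transcript length, 1.36, 4.38, 8.14 and 15.3% of genes rose at E13.5 from the shortest to the longest quartile. Of the 43 genes, 3, 5, 12 and 23 lay in these quartiles, and 2, 2, 5 and 9 of them rose. With the trend on length removed, 17 of the 43 rose with edgeR, where 6.25% of all genes rose. They were 16 of the 18, without Rims1 and Unc13a (edgeR, adjusted p from 0.0767 to 0.175), and Snap25. The median log2 change over the 43 genes fell from 0.94 to 0.80, and to 0.74 with a replicate block added. The log2 change of Unc13a with the length trend removed was 0.58.

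The comparison at E16.5 found 0 of the 43 genes called with edgeR in either direction, where 0% of all genes rose and 0% fell. At an unadjusted p under 0.05, 2 of the 43 differed, as did 426 of all genes, and DESeq2 and limma-voom called 0 of the 43 and 16 and 2 of all genes. The median log2 change was -0.02 over the 43 genes and -0.01 over all genes, and on TPM 0.27 and 0.23. Leaving out 1 library at a time, the median over the 43 genes ran from -0.11 to 0.10. In 4 genes, Sv2c, Vamp2, Syt11 and Slc32a1, all p18mKO2+ values lay above all p18mKO2- values, where this held for 4.07% of all genes. In Erc2 they lay below, where this held for 3.88% of all genes.

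Slc32a1 had the largest change at E16.5. Slc32a1 stood at 9.46, 10.7 and 9.79 CPM in p18mKO2- and 22.5, 27.3 and 19.3 CPM in p18mKO2+. The 3 p18mKO2+ values lay well above the tight p18mKO2- values, and the log2 change was 1.21 ± 0.43 (SE; edgeR, adjusted p = 1). At E13.5 the gene spread from 3.80 to 17.5 CPM in p18mKO2- and from 14.3 to 33.3 CPM in p18mKO2+. The 13 GABAergic markers summed to 243 to 385 TPM in p18mKO2- and 535 to 702 TPM in p18mKO2+ at E16.5, with a median log2 change of 0.90 and 0 called; their part in the Slc32a1 values was not tested. Sh3gl2, the other gene at an unadjusted p under 0.05, was lower in p18mKO2+, with a log2 change of -0.39 ± 0.18 (SE; edgeR, adjusted p = 1).

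The genes that rose at E13.5 had the following levels at E16.5, none called. Syn1 stood at 97.5, 73.3 and 138 CPM in p18mKO2- and 105, 101 and 108 CPM in p18mKO2+, a log2 change of 0.02 ± 0.24 (SE). Syn3 stood at 9.76, 8.14 and 6.55 CPM and 7.85, 5.06 and 4.70 CPM, a log2 change of -0.47 ± 0.44. Syp stood at 106, 118 and 182 CPM and 116, 111 and 124 CPM, a log2 change of -0.21 ± 0.23. In each of the 3 genes the groups overlapped, and replicate 3 of p18mKO2- held the highest value of Syn1 and Syp. Vamp2 stood at 225, 219 and 219 CPM and 232, 243 and 268 CPM, a difference of 0.16 ± 0.16 without overlap. Syt1 stood at 87.9, 81.6 and 144 CPM and 111, 85.9 and 83.1 CPM, a log2 change of -0.16 ± 0.31. Syt5 stood at 34.3, 41.7 and 58.7 CPM and 48.2, 46.9 and 44.96 CPM, a log2 change of 0.06 ± 0.29. Replicate 3 of p18mKO2- was again the highest library for both synaptotagmins. Rims1 stood at 24.01, 21.01 and 35.6 CPM and 27.3, 25.7 and 23.03 CPM, a log2 change of -0.08 ± 0.39. Unc13a stood at 102, 69.4 and 119.7 CPM and 96.1, 88.4 and 80.3 CPM, a log2 change of -0.13 ± 0.24.

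The genes Syt11 and Slc17a6 and the split gene Syt13 complete the E16.5 values. Syt11 stood at 409, 387 and 362 CPM in p18mKO2- and 416, 416 and 444 CPM in p18mKO2+, without overlap but with a log2 change of 0.14 ± 0.13 (SE). Slc17a6 stood at 69.01, 66.6 and 96.8 CPM and 67.4, 60.6 and 75.6 CPM, with overlap. Syt13 stood at 2.46, 6.66 and 5.10 CPM and 4.38, 5.11 and 2.86 CPM, low in all 6 libraries.

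The difference between the p18mKO2 effects at the 2 stages was tested as 1 contrast over all 12 libraries. Of the 43 genes, 10 had a lower log2 effect at E16.5 than at E13.5, where 2.4% of all genes did, and 0 had a higher one with edgeR, where 0.298% of all genes did. At an unadjusted p under 0.05, 21 of the 43 differed, as did 2749 of all genes. DESeq2 and limma-voom also called 0 of the 43 higher, where they called 1.63% and 0.262% of all genes higher. The median difference was -0.76 over the 43 genes and -0.03 over all genes. The 10 were 1 vesicle protein, 1 SNARE gene, 2 Rab3 genes, 4 active zone genes and 2 endocytosis genes.

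Sh3gl2 had the largest difference. At E16.5 Sh3gl2 stood at 71.3, 82.1 and 111 CPM in p18mKO2- and 69.97, 55.4 and 77.1 CPM in p18mKO2+, overlapping groups, and the log2 effect at E16.5 minus that at E13.5 was -2.21 ± 0.26 (SE; edgeR, adjusted p = 6.37e-04). Cplx1 stood at 48.4, 62.98 and 59.4 CPM and 67, 56.5 and 85.04 CPM at E16.5. Its groups overlapped there, and the difference of the effects was -1.83 ± 0.27 (SE; edgeR, adjusted p = 0.00278). Rab3c stood at 233, 209.5 and 309.8 CPM and 266, 234 and 273 CPM at E16.5, with overlap and a difference of -1.75 ± 0.30 (SE; edgeR, adjusted p = 0.00875). Rab3a stood at 167, 134 and 137 CPM and 136, 125 and 169.8 CPM, with overlap and a difference of -1.36 ± 0.23 (SE; edgeR, adjusted p = 0.00875). These 4 genes were called each time a library was left out.

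The other 6 genes were called with less margin. Ppfia2 stood at 102, 103 and 159 CPM in p18mKO2- and 112, 94.8 and 108 CPM in p18mKO2+ at E16.5, with a difference of the effects of -1.72 ± 0.36 (SE; edgeR, adjusted p = 0.0236). Bsn stood at 98.3, 65.5 and 71.6 CPM and 86.3, 70.9 and 78.8 CPM, with a difference of -1.54 ± 0.29 (SE; edgeR, adjusted p = 0.0146). Pclo stood at 99.5, 78.6 and 106 CPM and 87.1, 71.97 and 69.1 CPM, with a difference of -1.37 ± 0.28 (SE; edgeR, adjusted p = 0.0193). In all 3 the groups overlapped at E16.5, and replicate 3 of p18mKO2- was the highest library for Ppfia2 and Pclo. Sv2a stood at 95.9, 91.4 and 101 CPM and 106, 90.4 and 98.1 CPM, with a difference of -1.53 ± 0.34 (SE; edgeR, adjusted p = 0.0303). Snap91 stood at 86.4, 71.4 and 161 CPM and 101, 85.3 and 99.5 CPM, with a difference of -1.51 ± 0.37 (SE; edgeR, adjusted p = 0.0472). Erc2 stood at 72.9, 71.4 and 75.3 CPM and 69.2, 65.8 and 61.8 CPM, with a difference of -1.15 ± 0.28 (SE; edgeR, adjusted p = 0.0431). Erc2 was the only one of the 6 whose groups did not overlap at E16.5, p18mKO2- being higher.

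Erc2 lost its call without any 1 library except p18mKO2+ replicate 2 at E13.5 (edgeR, adjusted p from 0.0605 to 0.129). Snap91 lost it in 9 of 12 such fits (0.0543 to 0.144), keeping it without p18mKO2+ replicate 2 at E13.5 or p18mKO2- replicate 1 or 2 at E16.5. Sv2a lost it in 7 of 12 (0.0519 to 0.0983), without p18mKO2- replicate 2 or 3 or p18mKO2+ replicate 1 at E13.5, or p18mKO2- replicate 2 or any p18mKO2+ replicate at E16.5. Ppfia2 lost it without p18mKO2+ replicate 1 at E13.5 or p18mKO2+ replicate 2 or 3 at E16.5 (0.0641 to 0.0842), Pclo without p18mKO2+ replicate 2 or 3 at E16.5 (0.0652 to 0.0820), and Bsn without p18mKO2+ replicate 2 at E16.5 (0.0630). The count of 10 fell to 6 without p18mKO2+ replicate 1 at E13.5, and to 4 and 5 without p18mKO2+ replicates 2 and 3 at E16.5. The shares of all genes called lower were then 1.08, 0.683 and 0.927%. Without the 2 libraries that held both Xist and Y-linked transcripts the count was 4, again Cplx1, Rab3a, Rab3c and Sh3gl2, and the share 0.801%. On deposited TPM, tested with limma on log2(TPM + 1), the count was 2, Cplx1 and Sh3gl2, and the share 0.244%. Pan-neuronal genes showed lower effects at E16.5 too, 5 of 14 called, and so did 9 of the 52 other presynaptic genes tested.

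**Figure D3:**
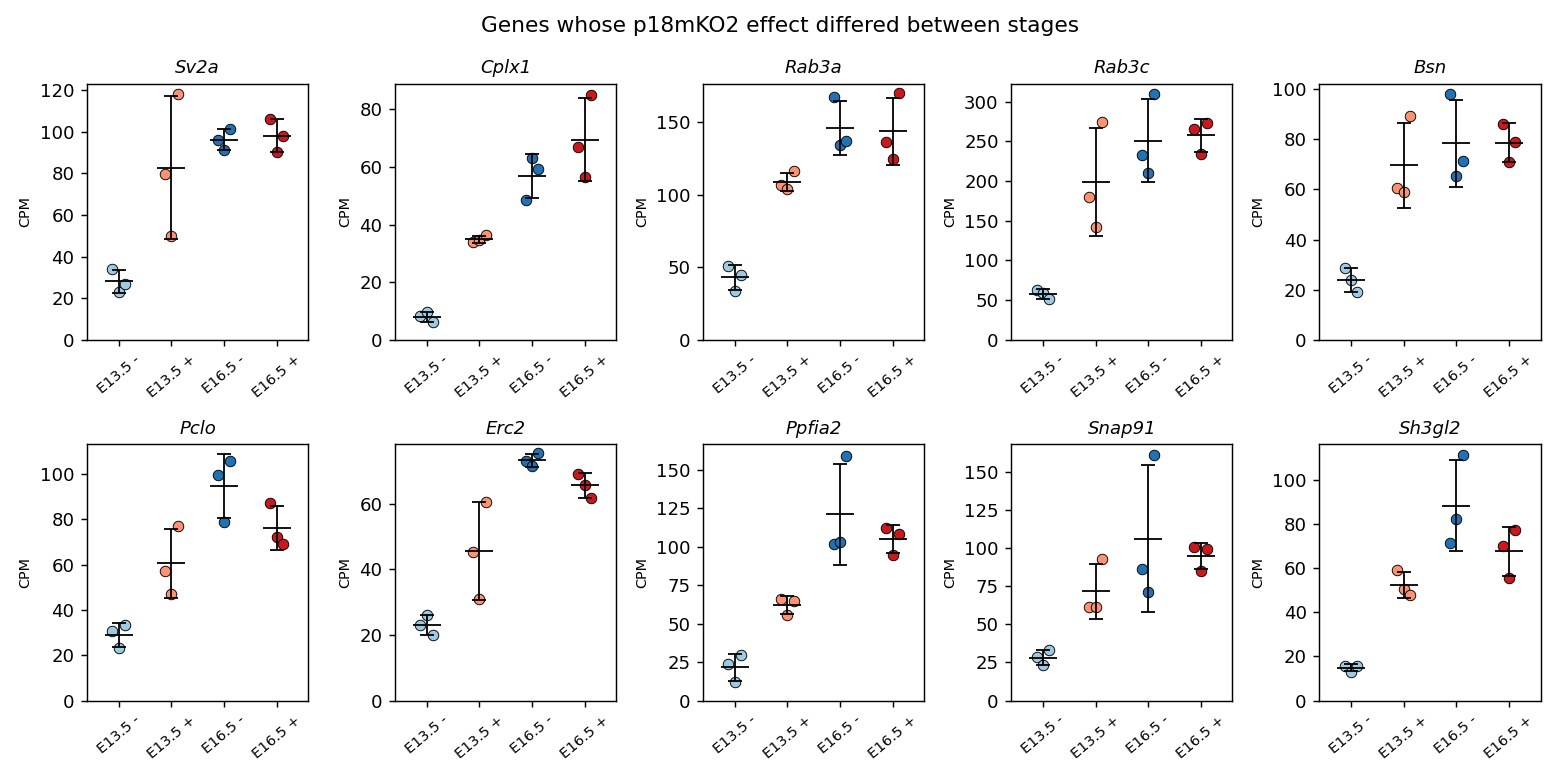
Each panel shows CPM of 1 of the 10 genes whose p18mKO2 effect differed between stages, by library in the 4 groups (minus and plus for p18mKO2- and p18mKO2+), with a line at the mean and bars of 1 SD (n = 3). In each panel the p18mKO2- libraries at E13.5 are the lowest group.

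Between E13.5 and E16.5 in p18mKO2- tissue, 26 of the 43 genes rose, where 16.4% of all genes rose, and 1 fell, where 13.4% fell. The median log2 change was 1.30 over the 43 genes and -0.02 over all genes, and in 28 genes the E16.5 values all lay above the E13.5 values, as in 21% of all genes. This contrast and the p18mKO2 contrast at E13.5 share the 3 p18mKO2- libraries at E13.5, so their values are given side by side only. By role, 6 of 7 vesicle proteins, 5 of 8 SNARE genes, 3 of 8 synaptotagmins and Doc2, 2 of 3 Rab3 genes, 6 of 9 active zone genes, 0 of 3 transporters and 4 of 5 endocytosis genes rose.

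Syt4, a synaptotagmin of neuropeptide and postsynaptic vesicles, rose most. Syt4 stood at 37.2, 18.7 and 31 CPM at E13.5 and 173, 112 and 413 CPM at E16.5 in p18mKO2-, with replicate 3 the highest at E16.5 and no overlap, a log2 change of 3.01 ± 0.48 (SE; edgeR, adjusted p = 3.86e-04). Cplx1 changed by 2.82 ± 0.20 (SE; edgeR, adjusted p = 6.36e-07) with stage and by 2.12 with p18mKO2 at E13.5. Sh3gl2 changed by 2.58 ± 0.19 (SE; edgeR, adjusted p = 9.25e-07) with stage and 1.83 with p18mKO2. Ppfia2 changed by 2.48 ± 0.27 (SE; edgeR, adjusted p = 1.93e-05) with stage and 1.51 with p18mKO2. Rims1 changed by 2.41 ± 0.42 (SE; edgeR, adjusted p = 6.58e-04) with stage and 1.35 with p18mKO2. Whether the stage value differs from the p18mKO2 value was not tested in any of the 4. The remaining 21 genes that rose changed by log2 values from 0.60 (Cplx2) to 2.33 (Syn3). Snap25, which lay just outside the threshold for p18mKO2 at E13.5, rose by 2.05 ± 0.33 (SE; edgeR, adjusted p = 4.32e-04) with stage.

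Syt13, which encodes an atypical synaptotagmin that does not bind calcium, was the 1 gene that fell, with a log2 change of -2.66 ± 0.75 (SE; edgeR, adjusted p = 0.0153). Its values ran from 4.09 to 45.2 CPM at E13.5 and from 2.46 to 6.66 CPM at E16.5 and overlapped, with replicate 3 at E13.5 inside the E16.5 range. The call of Syt13 was lost with limma-voom (adjusted p = 0.128) and with limma on log2(TPM + 1) (adjusted p = 0.0795). Among the genes not called, Syt11, Rims2 and Unc13b lay lower at E16.5 without overlap, at -0.32 ± 0.13, -0.35 ± 0.20 and -0.27 ± 0.15 (SE). Of all genes tested, 19.4% lay lower without overlap. Syt11 was called lower with DESeq2, with a mean CPM of 5 or more and with the length trend removed. Those fits called 15.2, 19.2 and 14.9% of all genes lower. Unc13b was called lower with the length trend removed. The transporters Slc17a6, Slc17a7 and Slc32a1 were not called, at 0.29 ± 0.22, 0.07 ± 0.33 and 0.03 ± 0.43 (SE).

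Leaving out each of the 6 p18mKO2- libraries in turn, 21 of the 27 called genes were called each time. Stx1a lost its call without any of these libraries except replicate 3 at E13.5 (edgeR, adjusted p from 0.0618 to 0.168). Sv2c lost it without replicate 2 or 3 at either stage (0.0829 to 0.126), Cplx2 without replicate 2 at E13.5 or 1 or 3 at E16.5 (0.0564 to 0.0761), and Amph without replicate 3 at E13.5 or 1 or 2 at E16.5 (0.0524 to 0.0653). Synj1 lost it without replicate 2 at E13.5 or 3 at E16.5 (0.0586 to 0.0628), and Syt13 without replicate 2 at E13.5 or 1 at E16.5 (0.0559 to 0.0590). Long genes rose more often with stage too, 5.52, 12.1, 18.9 and 29.3% from the shortest to the longest quartile. With the trend on length removed, 24 of the 43 rose and 3 fell, where 15.9 and 14.9% of all genes did. Sv2c and Cplx2 were not called in that fit (edgeR, adjusted p from 0.0954 to 0.164). Over the same stages 11 of 14 pan-neuronal genes rose and 0 fell, to 4172 to 4617 TPM summed, and all 14 cell cycle genes fell, to 687 to 1276 TPM summed; their part in the rises was not tested. The 43 genes summed to 1588 to 1821 TPM at E16.5, or 38.1 to 40.9% of the pan-neuronal sum, with 129 to 163 TPM from Syt11.

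In p18mKO2+ tissue, 1 of the 43 genes rose between the stages, where 1.08% of all genes rose, and 0 fell, where 0.554% fell. At an unadjusted p under 0.05, 14 of the 43 differed by edgeR, as did 2486 of all genes. DESeq2 and limma-voom each called 3 of the 43 higher, where they called 2.97% and 1.74% of all genes higher. Both called 0 of the 43 lower, where they called 2.08% and 0.673% of all genes lower. The gene was Cplx1, from 34.9 ± 1.24 CPM at E13.5 to 69.5 ± 14.4 CPM at E16.5 (mean ± SD, n = 3), and the log2 change was 0.99 ± 0.18 (SE; edgeR, adjusted p = 0.0161). It was not called without p18mKO2+ replicate 1 or 2 at E13.5 or replicate 1 or 3 at E16.5 (edgeR, adjusted p from 0.0556 to 0.0716), nor without the 2 libraries that held both Xist and Y-linked transcripts (0.0992), where Rims1 was called instead. Without p18mKO2+ replicate 3 at E13.5 alone, 8 genes were called higher, where 1.61% of all genes were. They were Cplx1 with Sv2b, Sv2c, Vamp2, Syt4, Rims1, Erc2 and Dnm1. The median log2 change was 0.31 over the 43 genes and -0.03 over all genes. It was 0.08 without p18mKO2+ replicate 2 at E13.5 and 0.62 without replicate 3. In 12 genes the E16.5 values all lay above the E13.5 values, as in 13.1% of all genes. Sv2c, Syt4 and Sv2b had the largest positive log2 differences, at 1.46 ± 0.53, 1.33 ± 0.45 and 1.12 ± 0.29 (SE), none called. In p18mKO2- the same 3 genes changed by 1.60, 3.01 and 1.46.

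**Figure D4:**
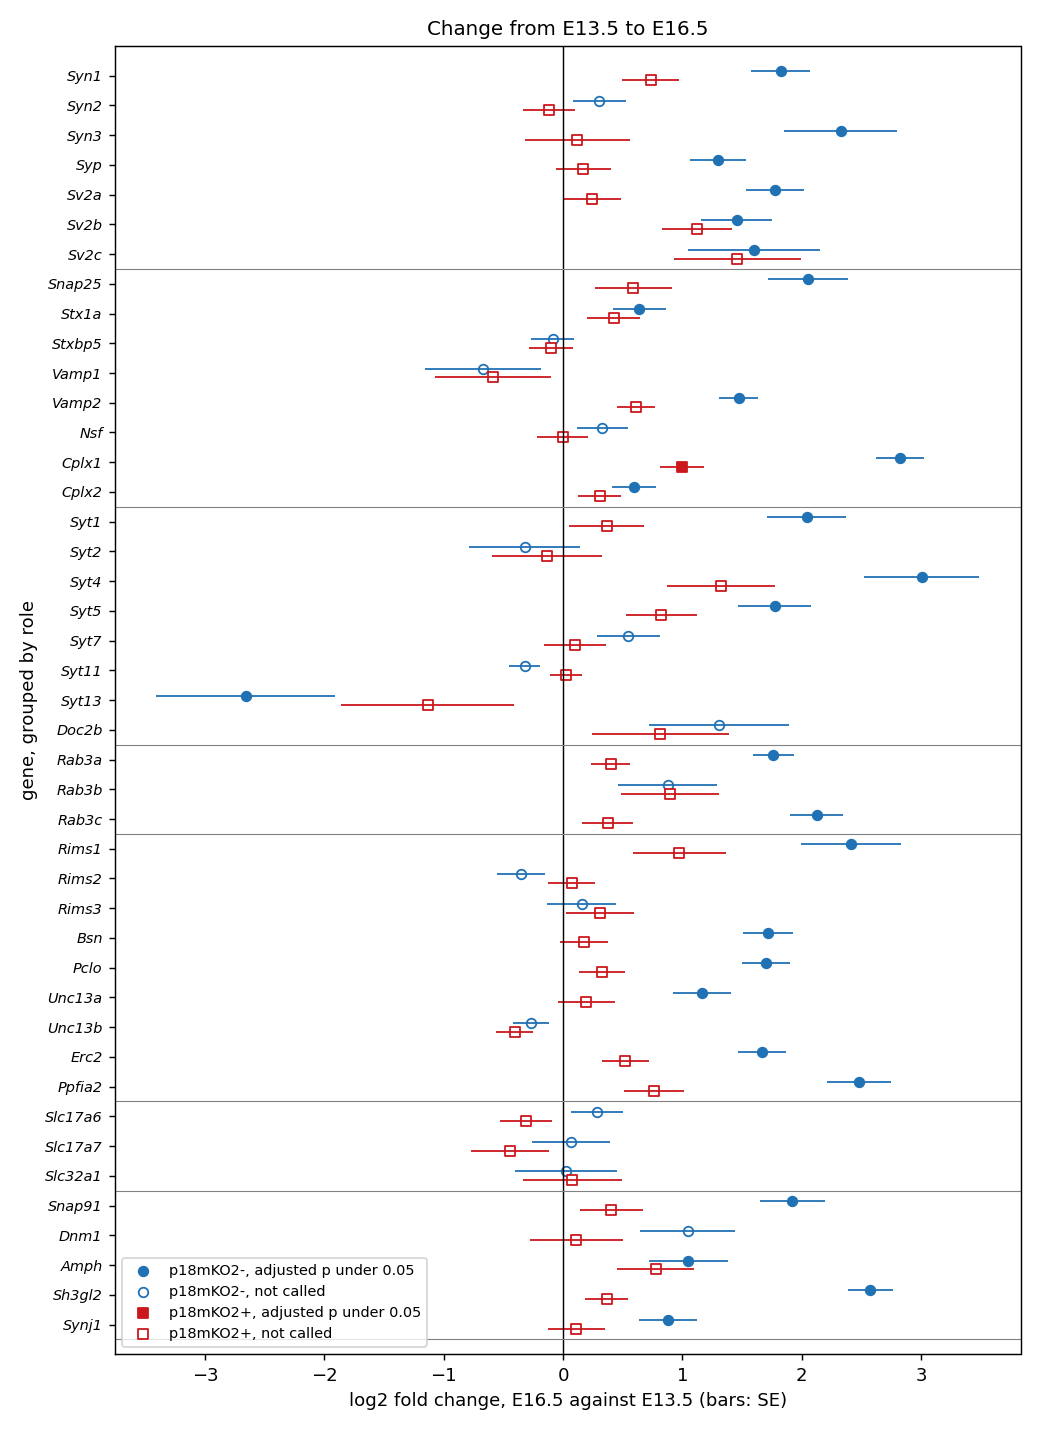
Points show the log2 fold change of E16.5 against E13.5 for each of the 43 genes by role, as blue circles in p18mKO2- and red squares in p18mKO2+, with bars for the SE; filled points passed an adjusted p under 0.05. In p18mKO2-, 27 points are filled and reach 3.01 for Syt4, and in p18mKO2+ 1 point is filled, Cplx1 at 0.99.

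Ratios between 2 related genes within a library do not depend on library scaling, and 10 such pairs are described. They were chosen after their values had been seen, most as a called gene over an uncalled relative, so their ratios are given with no test. Cplx1 and Cplx2 both encode complexins. The log2 ratio of Cplx1 to Cplx2 counts was -4.72, -3.74 and -5.18 in the p18mKO2- libraries at E13.5 and -2.78, -2.60 and -2.78 in p18mKO2+. At E16.5 it was -2.63, -2.00 and -2.41 in p18mKO2- and -2.16, -2.21 and -1.79 in p18mKO2+, so that Cplx2 had more counts than Cplx1 in every library. The mean ratio differed by 1.83 between p18mKO2+ and p18mKO2- at E13.5 and by 0.29 at E16.5 on the log2 scale.

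For Rims1 over Rims2 the log2 ratio was -3.30, -2.89 and -3.86 in p18mKO2- and -2.13, -2.37 and -1.27 in p18mKO2+ at E13.5, and -0.77, -0.61 and -0.27 in p18mKO2- at E16.5. The E16.5 values were the highest of the 3 groups. Unc13a over Unc13b went from -0.90, -1.17 and -0.43 in p18mKO2- to -0.28, -0.24 and 0.19 in p18mKO2+ at E13.5 and to 0.52, 0.44 and 0.88 in p18mKO2- at E16.5, where Unc13a had more counts than Unc13b in each library. By TPM, which corrects for length, Unc13b was the higher in replicate 2 there, at 18.6 TPM against 15.8 TPM. For Syt1 over Syt11, Vamp2 over Vamp1, Rab3a over Rab3b and Sv2a over Sv2b the mean log2 ratio at E13.5 was higher in p18mKO2+ by 1.63, 1.18, 1.45 and 1.36. For Syn1 over Syn2, Slc17a6 over Slc17a7 and Dnm1 over the broadly expressed Dnm2 it was higher by 0.55, 0.03 and 0.97. At E16.5 the mean differences of the 10 pairs ran from -0.28 to 0.30.

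**Figure D5:**
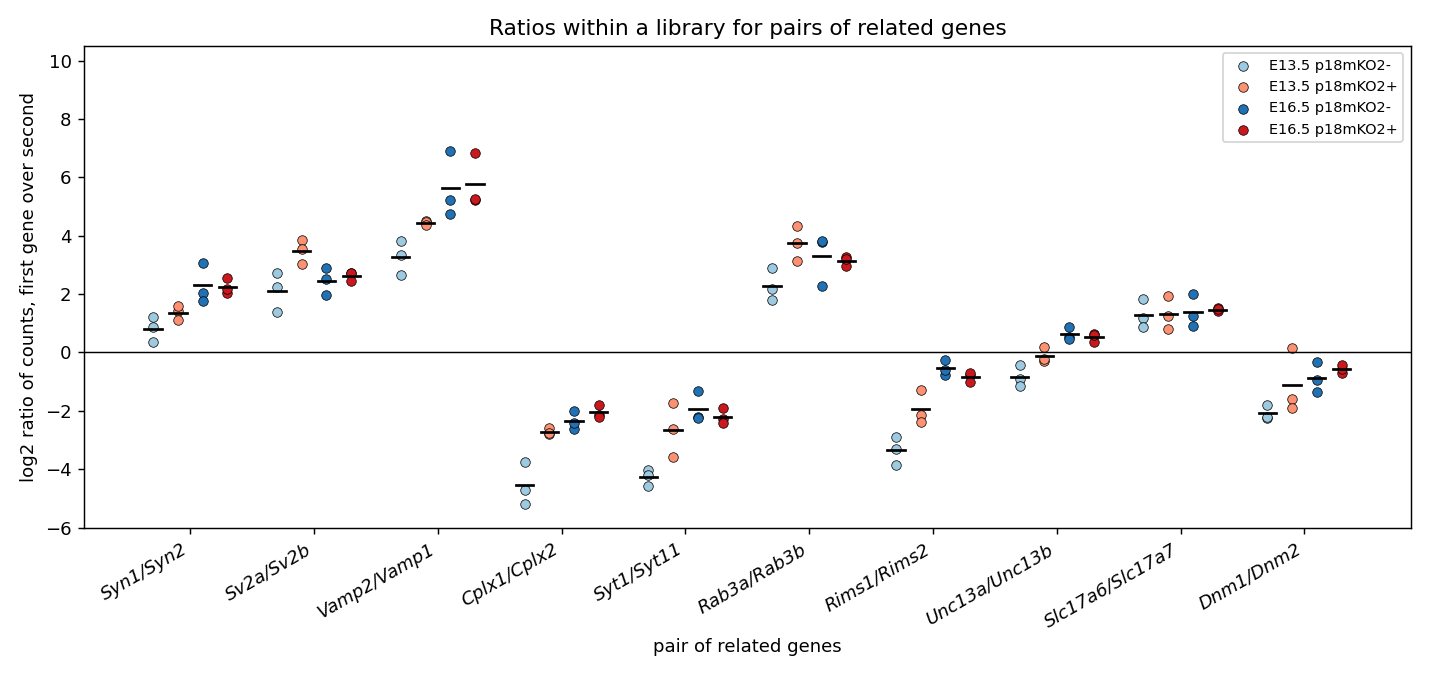
Points show, for each of 10 pairs of related genes, the log2 ratio of the 2 counts in each library by group, with a line at the group mean. For Cplx1 over Cplx2 and Rims1 over Rims2 the p18mKO2- libraries at E13.5 lie below the 3 other groups.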

How the data were processed

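RNA from the ventricular zone was sequenced in 12 libraries, 3 in each of 4 groups, from polyadenylated RNA with a directional kit, per the labels' protocols. Reads were processed with cutadapt 3.4, STAR 2.7.2b and RSEM 1.2.31 on GRCm38 (mm10), per the submitters' processing notes. The sources used here do not give the annotation release or strand setting, so overlapping genes may share reads. The authors deposited an RSEM expected count for each gene, with a TPM value, a length and a posterior SD of the count, per the file headers. Gene symbols came from GENCODE M21, which named 55141 of 55487 identifiers.

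Expected counts were rounded, and 16798 genes kept by filterByExpr were fitted with edgeR 4.0.16 (R 4.3.3; TMM, quasi-likelihood, 1 mean per group over all 12 libraries, 8 residual degrees of freedom), with Benjamini-Hochberg adjustment over all of them and calls at an adjusted p under 0.05. The SE is the log2 change divided by the square root of F. Ratios used counts plus 0.5. The pipeline was tested on simulated data.

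The 43 genes and the lists (other presynaptic genes, trafficking paralogues, cell type markers, REST and cofactors) were chosen with earlier results of these data known. Values in each library are printed for genes called for p18mKO2 at E13.5, for the difference between stages or in the rarer direction, and for the highest gene by TPM of each role; further values shown for genes near the threshold, Slc32a1, Dnm1 and Syt4, and the promoters shown, were chosen after seeing the data. Other settings tried were DESeq2 1.42.0, limma-voom (limma 3.58.1), RLE scaling, all genes without a filter, only genes with a mean CPM of 5 or more, limma on log2(TPM + 1), a length correction, a block for the replicate number, fits of only the 6 libraries in a comparison, and omission of every library in turn. Omission of the 2 libraries with Xist and Y-linked transcripts, and a Y-linked covariate, were chosen after seeing the data. The values of 1 gene among the other presynaptic genes are not reported here. Figures were drawn with matplotlib 3.10.9.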

Additional observations from a re-analysis of the deposited data

Results flagged for a closer look

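For 10 genes the p18mKO2 effect itself differed between E13.5 and E16.5 by the test of that difference (edgeR, adjusted p under 0.05), the effect being lower at E16.5 in each. The log2 differences were -2.21 for Sh3gl2, -1.83 for Cplx1, -1.75 for Rab3c, -1.72 for Ppfia2, -1.54 for Bsn, -1.53 for Sv2a, -1.51 for Snap91, -1.37 for Pclo, -1.36 for Rab3a and -1.15 for Erc2. Groups of 3 libraries are too small for a formal check on single outlying libraries. With each of the 12 libraries left out in turn, 4 of the 10 were called each time: Sh3gl2, Cplx1, Rab3c and Rab3a. The other 6 lost their call in some of these fits.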

How the results depend on the processing

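No gene's called change turned direction under any alternative run. At E13.5, 18 genes were called for p18mKO2 and 7.29% of all genes rose. With 1 library left out these were 13 to 21 and 4.28 to 8.58%. Under the other settings fixed at the start they were 15 to 24 and 5.31 to 11.2%. The replicate block gave 21 and 9.1%, and 1 of the 24, Syt13, was lower. With the Y-linked covariate they were 13 and 4.01%. Without the 2 libraries that held both Xist and Y-linked transcripts they were 11 and 3.72%. At E16.5 the count of 0 became 1, Slc32a1, without a filter, where 0.199% of all genes were called higher. For the difference between stages, 10 became 16 with DESeq2, 20 without a filter, 2 on TPM, 13 with the replicate block, 4 without those 2 libraries, and 4 to 13 leaving out 1 library. The 27 genes called with stage in p18mKO2- numbered 22 to 31, of which 22 to 30 rose and 0 to 3 fell. Over these fits 11 to 21.9% of all genes rose and 7.46 to 19.2% fell. In p18mKO2+, 1 gene and 1.08% of all genes rose with stage. These became 3 and 2.97% with DESeq2, 3 and 1.74% with limma-voom, and 10 and 2.21% without a filter. A mean CPM of at least 5 gave 2 and 2.06%, and the replicate block 2 and 1.96%. Block and length correction gave 4 and 2.18%, and the 6 libraries alone 4 and 2.49%. The Y-linked covariate gave 0 and 0.643%, and leaving out 1 library 0 to 8 and 0.38 to 2%. Whether replicate numbers pair libraries is not stated. Same-numbered libraries correlated from -0.07 to 0.28 in their deviations from group means, and differently numbered ones from -0.21 to 0.099. The same-numbered libraries thus reached the higher values, but not all were above 0.1, and the main fit left the block out. Whether the numbers mark shared material was not tested. The cause of these shifts was not tested, and 3 libraries a group limit the precision.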
